A study of Mus musculus with 2 samples.

Results

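The genes described are the cytoplasmic ribosomal protein genes of mouse cochlear cells. They were taken by gene symbol, as every gene named Rpl or Rps with a number, then at most 1 letter a, x or l and any further digits (as in Rps3a1), together with Rplp0, Rplp1, Rplp2 and Rpsa. This gave 83 of the 32285 genes in the count files, 51 with large subunit names and 32 with small subunit names (Rpsa among them). 77 of them encode standard ribosomal proteins and 6 are paralogs of one (Rpl3l, Rpl7l1, Rpl10l, Rpl22l1, Rpl39l and Rps27l). At least 1 transcript was counted for 82 members, and Rpl10l had none in either library.

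Droplet sequencing measured RNA of single cells from the cochlear sensory epithelium. The animals were C57BL/6J mice, 4 to 6 weeks old, and every ear had 2 hours of octave-band noise (8 to 16 kHz, 105 dB) with dissection following after 2 days. For the drug library, 5 ears dosed ahead of the noise with a drug at 90 mg/ml were pooled. For the noise-only library, 5 contralateral ears of these mice, which got no drug, were pooled. How the drug was given is not stated, so drug may or may not have reached the contralateral ears, and the series title abbreviates its name as VPA without spelling it out. The question addressed was how transcription in each cell type differed between drug-treated and untreated ears after noise. With 1 library per group no test between the groups exists, and every interval given covers counting error only.

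A ribosome joins a large and a small subunit, each built of ribosomal RNA and of many proteins that are needed in nearly equal amounts. The messages of these proteins belong to the terminal oligopyrimidine (TOP) class, which begin with a C and a run of C or U and whose translation is switched on together by mTOR signalling. They are among the most abundant messages of growing cells, and tissue-specific use of single ribosomal proteins and of their paralogs has been described in several tissues.

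The starts of 9 members are shown, in the order of the results they belong to, because a C followed by pyrimidines at the transcription start defines the TOP class. Each run holds 10 bases before and 20 bases from the start annotated by RefSeq on GRCm38.p6, 5′ to 3′ on the gene's strand, and capitals mark the longest run of at least 5 C or T.
Rpl38: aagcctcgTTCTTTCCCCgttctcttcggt
Rps27: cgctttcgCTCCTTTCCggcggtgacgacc
Rpl39: gctccgcctctagcgaCTTCTTCTaatcgc
Rps6: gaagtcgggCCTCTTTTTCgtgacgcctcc
Rplp0: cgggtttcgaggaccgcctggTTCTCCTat
Rps10: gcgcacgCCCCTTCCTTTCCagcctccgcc
Rpl35: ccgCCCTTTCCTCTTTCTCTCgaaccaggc
Rpl22l1: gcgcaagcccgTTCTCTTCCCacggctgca
Rps27l: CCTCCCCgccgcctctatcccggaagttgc
They lie at chr11:114668570-114668599 (plus strand, Rpl38), chr3:90213629-90213658 (minus, Rps27), chrX:37085203-37085232 (minus, Rpl39), chr4:86857348-86857377 (minus, Rps6), chr5:115559457-115559486 (plus, Rplp0), chr17:27635225-27635254 (minus, Rps10), chr2:39005112-39005141 (minus, Rpl35), chr3:28805498-28805527 (plus, Rpl22l1) and chr9:66946076-66946105 (plus, Rps27l). Each window spans the promoter edge and the first bases of the first exon. Rps27l has a further start row in the table, which is not shown.

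Of the 83 members, 63 had a start in the RefSeq table. A C at the annotated start followed by 4 bases of C or T was found in 13 of the 63 (20.6%), against 3.01% of all 27025 genes in that table. Among the windows shown, Rpl38, Rps27, Rps6, Rps10 and Rpl35 have it, while Rpl39, Rplp0, Rpl22l1 and Rps27l have their pyrimidine run before or after the annotated base. In 300-base windows, from 250 before to 50 after the start, CGGAAG on either strand was found in 66.7% of members against 18.8% of genes, and CTTTCC in 52.4% against 29.3%. The TATAAA letters were found in 11.1% of members and 15.7% of genes. The first motif was searched on the gene's strand only, the others on both strands, and CTTTCC can overlap the pyrimidine run. These matches describe letters and are no evidence of binding.

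The 2 count files held 18545 and 21773 barcodes with 38380393 and 39939170 transcripts counted by unique molecular identifier (UMI). After filtering, 16618 noise-only and 17536 drug cells remained, with medians of 1128 and 1128.5 UMIs. Cells fell into 40 clusters built without ribosomal protein and mitochondrially encoded genes. Of these, 36 were named from marker genes as cells resembling a type, written with "-like" at first use and shortened afterwards, and 19 classes had at least 100 cells in each library. The libraries shared 111 barcode sequences. Mitochondrially encoded genes took 4.45% of noise-only and 5.75% of drug UMIs, and a higher share of the drug library in 17 of the 19 classes. Over all cells the 4 haemoglobin genes had a 1.37-fold higher summed level in the drug library, but classes went either way. The ratio was 0.143 in pericyte-like and 0.610 in endothelial cell-like cells, and 3.78 in other cochlear epithelium-like cells. The part of the mitochondrial and haemoglobin differences in the values below was not tested unless a value without those genes is given. Sensory epithelium is the labelled tissue, and hair cell-like cells made up 106 noise-only and 157 drug cells. Among them 8 of the 9 hair cell markers were detected. The missing one was Slc26a5, the outer hair cell motor prestin.

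Ribosomal protein genes made up 11.1% of all UMIs in both libraries. The 77 standard members spanned 10.8-fold in level, from 300.7 CPM (UMIs per 1e6 UMIs of a library, mean of the 2 libraries) for Rpl23a to 3237 CPM for Rpl41, with a median of 1444 CPM. UMIs count captured 3′ ends, so these levels need no scaling by length. The 5 highest were Rpl41, the shortest member with 75 coding bases (3178 CPM noise-only, 3296 CPM drug), Rps29 (2886 and 3369 CPM), Rpl13 (3093 and 2949 CPM), Rps24 (2505 and 2527 CPM) and Rplp1 (2563 and 2403 CPM). Rps29 was the only one of the 5 to lead Rpl41 in a library, the drug one.

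Members at the bottom of the range were all paralogs. Rps27l, a paralog of Rps27 known as a target of p53, stood at 274.0 and 272.7 CPM in the noise-only and drug libraries, and Rpl7l1 at 49.7 and 45.6 CPM. Rpl39l, known from testis, had 35 and 18 UMIs in all, and Rpl3l, known from skeletal and heart muscle, had 12 and 14. Rpl10l, known from testis, had 0 UMIs, which allows a level of up to 0.0888 CPM in the noise-only and 0.0976 CPM in the drug library. The sixth paralog, Rpl22l1, was different, at 686 and 644 CPM, a level close to that of its parent Rpl22 at 689 and 722 CPM.

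Levels of single members also carry a limit of counting. Many have near-identical processed copies, and in the last 400 bases of a transcript a median of 52.6% of the standard members' 91-base stretches also occurred in another annotated gene. Rpl10, for example, shared all of its 3′ end, and its copy Rpl10-ps3 was counted as a gene of its own at 61.7 and 54.1 CPM. For most members no sharing gene was counted on its own, as with the 18 genes that share stretches with Rps12. Across the 77 members, level and shared fraction had a Spearman rho of -0.17, and level and coding length one of -0.34, as descriptions over genes that are not independent. The 2 libraries gave nearly the same levels, with r = 0.995 across members.

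Cell classes differed about 5-fold in the share of UMIs that ribosomal proteins took. Haematopoietic progenitor-like cells had the highest share, 25.1% (95% exact binomial interval 25.0 to 25.2%) noise-only and 23.7% (23.5 to 23.8%) with drug. That class was named on the granule protein genes Mpo, Elane, Prtn3 and Ctsg. Its other markers, Cd34 (21 and 12 UMIs) and Kit (31 and 25 UMIs), did not meet the marker rule. Monocyte or dendritic cell was the second-best type, with Cd209a and Plac8 among the leading genes, so the class may be mixed. Macrophage-like cells had 17.0% and 16.3%, and osteoblast or osteocyte-like cells 15.9% and 17.3%. Macrophages were second in the noise-only library, and stratified or mucosal epithelium-like cells in the drug library (12.1% and 17.4%). The lowest 2 classes in both libraries were neutrophil-like cells, at 5.03% and 6.51%, and oligodendrocyte-like cells, at 5.30% and 5.24%. The next lowest were neuron-like cells in the noise-only library (6.87%, and 6.97% with drug) and erythroid cell-like cells in the drug library (6.64%, against 8.63%). Highest over lowest class was 4.99-fold noise-only and 4.52-fold with drug. Across the 19 classes the 2 libraries' shares had r = 0.948, a description of classes that were clustered together.

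Sensory and supporting cells lay between these ends. Organ of Corti supporting cell-like cells had 13.7% in both libraries, hair cell-like cells 10.9% and 9.69%, and other cochlear epithelium-like cells 11.1% and 10.8%. In the lateral wall, fibrocyte-like cells had 13.6% and 12.4%, strial marginal cell-like cells 8.07% and 7.91%, and strial intermediate cell or melanocyte-like cells 7.30% and 7.04%. Vascular classes were ordered alike in both libraries, with endothelial cell-like cells at 13.2% in each, smooth muscle cell-like cells at 10.5% and 10.3% and pericyte-like cells at 9.63% and 9.15%. Schwann or satellite glia-like cells, the largest class, had 9.92% and 9.79%. Single cells of a class spread widely, with the 10th and 90th percentiles of noise-only supporting cells at 7.46% and 20.6%.

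**Figure D1:**
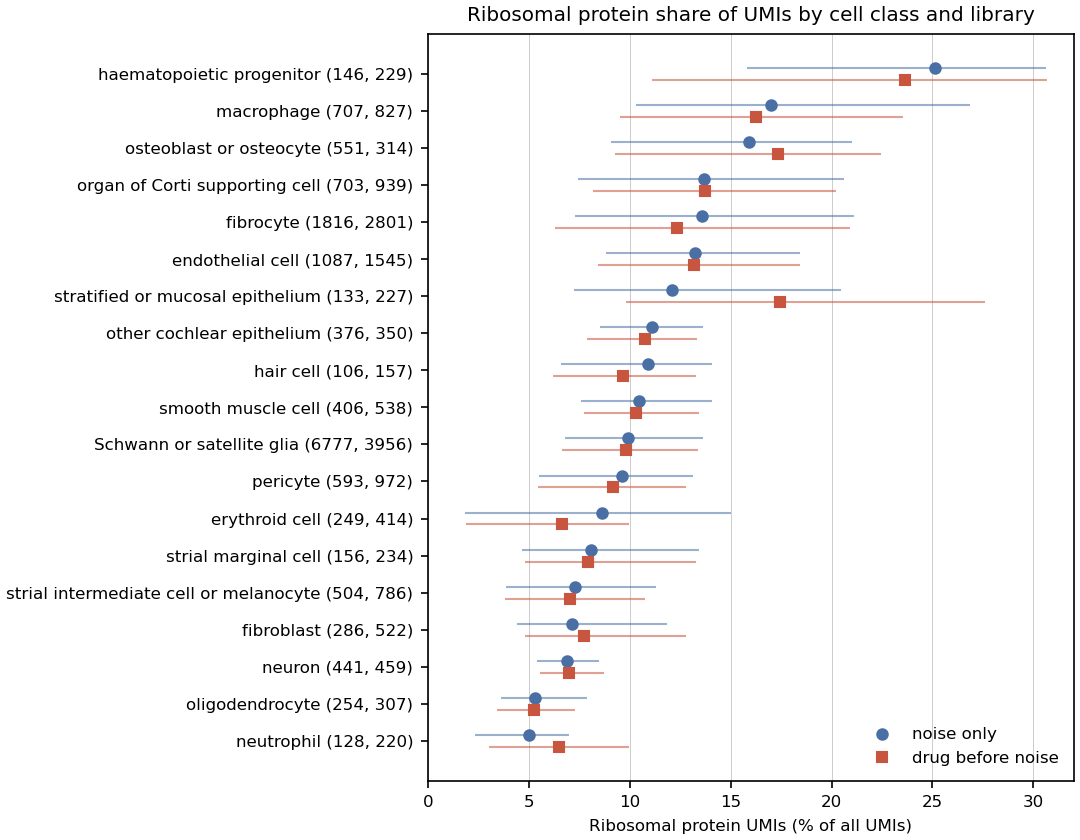
Share of UMIs on ribosomal protein genes (x axis, %) in each of 19 cell classes, with cell numbers noise-only and drug in brackets; points are pooled shares and lines run from the 10th to the 90th percentile of cells. Haematopoietic progenitors stand at 25.1% and 23.7%, neutrophils at 5.03% and 6.51%, oligodendrocytes at 5.30% and 5.24%, and the libraries lie furthest apart in stratified or mucosal epithelium, at 12.1% and 17.4%.

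Lymphoid clusters below the minimum of 100 cells lay in the range of the progenitors. The T or NK cell-like cluster had 26.2% (89 cells, noise-only) and 26.8% (116 cells, drug), and the B lineage cell-like cluster 23.8% (99 cells) and 22.5% (171 cells). Within a class, clusters could differ as much as classes did. Fibrocyte clusters ranged from 8.04% to 19.02% (noise-only) and from 7.85% to 19.02% (drug). The cluster at 19.02% was led by Notum, Emilin2 and Epha3, and the one at 8.04% by Slc4a11, Otos and Slc4a10, ion transport and secreted protein genes of the spiral ligament. Erythroid clusters ranged from 2.94% to 25.0% in the noise-only library. The cluster at 25.0% was led by Gfi1b, Rhag and Gata1, genes of erythroid precursors, and the other 2 by globin genes, at 4.45% and 2.94%.

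Share and cell depth were weakly related within most classes. Spearman rho of share against UMIs per cell was largest in hair cells (0.45 noise-only, 0.09 drug), haematopoietic progenitors (0.39 and 0.47) and fibroblast-like cells (-0.30 and -0.41). Neurons, with the deepest cells (medians of 12830 and 9845 UMIs), had 0.02 and -0.01.

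The proportion between the subunits varied little. Large subunit genes took 53.8% of ribosomal protein UMIs in the class where they took least and 59.0% where they took most.

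Other genes of the translation machinery followed the ribosomal protein share across the 19 classes to very different degrees. For 18 other TOP messages, among them Tpt1, Pabpc1, Eif3f and Naca, the summed level had r = 0.93 with the share in the noise-only and 0.96 in the drug library. For 9 elongation factor genes it was 0.90 and 0.89, and for 32 ribosome biogenesis genes, such as Fbl, Ncl and Nop56, 0.65 and 0.63. For 10 measured snoRNA host genes it was 0.58 and 0.70, and for 26 initiation factors 0.37 and 0.42. The 78 mitochondrial ribosomal protein genes, which serve a separate ribosome, had 0.20 and 0.21. The TOP list shares Fau and Rack1, among others, with the ribosomal proteins outside the symbol rule and Eif2s3x with the initiation factors. All points share the same cells and totals, so these are descriptions of 19 classes.

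**Figure D2:**
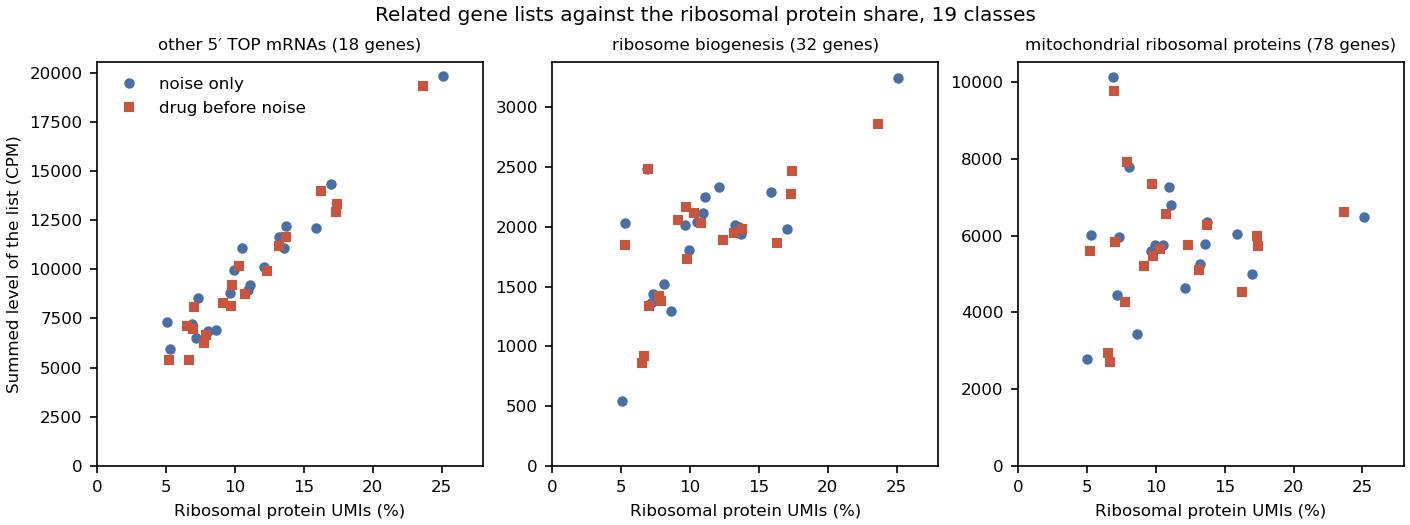
Summed level of 3 gene lists (y axis, CPM) against the ribosomal protein share of UMIs (x axis, %), with 1 point per class and library. Other TOP messages rise with the share (r = 0.93 and 0.96), biogenesis genes less closely (0.65 and 0.63), and mitochondrial ribosomal proteins show little relation (0.20 and 0.21).

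Single members were unevenly used even when the overall level was taken out. Each member was expressed per 10000 ribosomal protein UMIs of a class, with 0.5 UMI added, and its span from the lowest to the highest class was taken in each library. Over the 80 members with at least 200 UMIs in each library, the smaller of the 2 spans had a median of 0.68 on the log2 scale. It was at least 1, or 2-fold, for 15 members. The highest class was the same in both libraries for 46 members, the lowest for 40 and both for 25, and the median correlation between a member's 2 class profiles was r = 0.88. The evenest member was Rps10, part of the small subunit head, with a smaller span of 0.31.

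Neurons were the extreme class most often, as the highest for 9 members and the lowest for 9 in both libraries. Rplp0, the base of the stalk that recruits elongation factors, stood at 77.4 and 67.3 per 10000 in neurons (noise-only and drug). In Schwann or satellite glia it stood at 218 and 191, and in stratified or mucosal epithelium at 214 and 226. Hair cells were as low as neurons in Rplp0, at 83.4 and 58.4. Its stalk partners went other ways, with Rplp2 highest in neurons (121 and 122) and lowest in supporting cells (75.3 and 75.9), and Rplp1 highest in hair cells (346 and 321). All Rplp0 levels of neurons and hair cells lay below those of the 2 high classes in both libraries.

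Rps2, which lies at the messenger RNA entry of the small subunit, was lowest in neurons as well, at 81.3 and 85.9 per 10000, against 179 and 197 in osteoblasts or osteocytes. Rpl38 had the opposite pattern. It is a small surface protein of the large subunit that in mouse embryos is needed for translating a set of Hox messages. It reached 229 and 245 in neurons and 174 and 186 in strial marginal cells, against 96.2 and 109 in haematopoietic progenitors. Rpl29 was also highest in neurons, at 93.2 and 82.6, and lowest in hair cells, at 37.7 and 36.8, so that these 2 excitable cell types stood at opposite ends.

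Rps29, a small zinc-binding protein, was highest in macrophages, at 358 and 423 per 10000, and lowest in stratified or mucosal epithelium, at 168 and 181. Rpsa, the ribosomal form of the laminin receptor precursor, was highest in haematopoietic progenitors (180 and 175) and about as high in oligodendrocytes (179 and 171). It was low in strial marginal cells (79.1 and 85.7) and other cochlear epithelium (84.8 and 78.7).

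**Figure D3:**
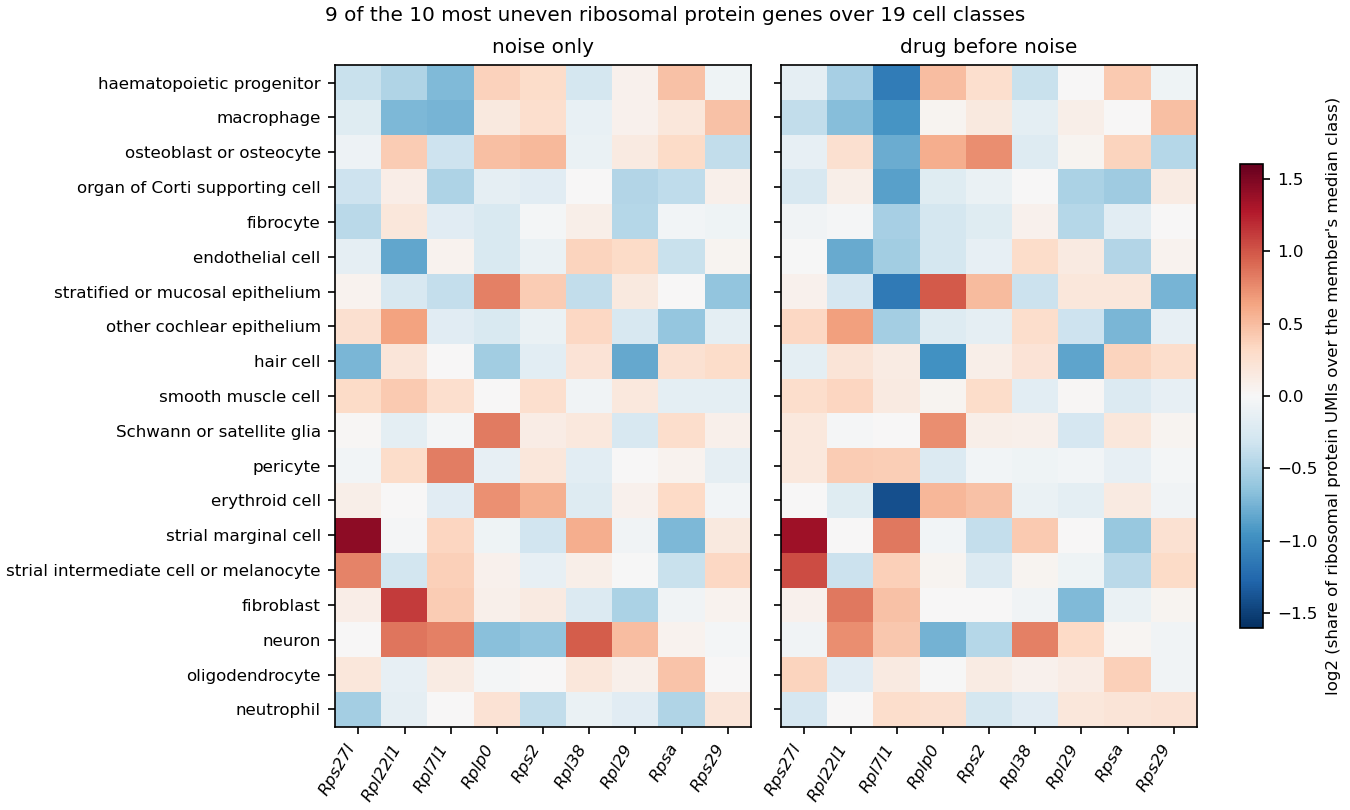
Heat maps of 9 of the 10 members with the widest span over classes, 1 map per library; colour gives log2 of a member's share of ribosomal protein UMIs over its median class, and classes are ordered by ribosomal protein share. Rps27l in strial marginal cells (69.9 and 61.7 per 10000) and Rpl22l1 in fibroblasts (119 and 98.1) are the highest classes for these members in both maps.

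Paralogs led the list of uneven members. Rps27l reached 69.9 and 61.7 per 10000 in strial marginal cells and 45.1 and 49.8 in strial intermediate cells or melanocytes, both of the stria vascularis. In hair cells it stood at 15.6 and 21.7 and in macrophages at 22.6 and 18.5. As a fraction of Rps27 and Rps27l together, Rps27l made up 29.9% and 25.8% in marginal cells and 19.7% and 20.6% in intermediate cells, and 6.89% and 9.396% in hair cells. Over all cells the fraction was 13.0% and 11.8%. Of the Rps27l stretches 3.23% occurred in another gene, but 98.4% of those of Rps27 did. Rps27rt, a gene sharing stretches with Rps27, was in the count files as a gene of its own. Rps27 may thus be undercounted and the fractions of Rps27l overstated, which was not tested.

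Rpl22l1, which takes the place of Rpl22 in the large subunit, had an equally clear order. In endothelial cells it stood at 30.9 and 31.3 per 10000, and in macrophages at 33.2 and 34.0. In neurons it reached 99.4 and 92.1, and in fibroblasts 119 and 98.1. Rpl22l1 made up 29.4% (864 UMIs) and 29.2% (908 UMIs) of the pair in endothelial cells and 31.96% and 32.03% in macrophages. In neurons it made up 67.7% (3742 UMIs) and 66.6% (2790 UMIs), and in fibroblasts 67.0% and 60.3%. Rpl22 was thus the more abundant of the pair in endothelial cells and macrophages, and Rpl22l1 in neurons and fibroblasts, in both libraries.

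Rpl36al, a paralog outside the symbol rule, made up 62.8% and 59.9% of the Rpl36a and Rpl36al pair in neurons and 35.1% and 37.6% in endothelial cells. Rpl36a shared all of its 3′ end with other genes, of which Rpl36a-ps1 was counted as a gene of its own (11.3 and 12.6 CPM). Rpl36a may thus be undercounted and the fractions of Rpl36al overstated, which was not tested. Other classes were ordered differently from Rpl22l1, with Rpl36al at 58.8% and 60.7% in strial marginal cells, 48.4% and 46.7% in fibroblasts and 42.3% and 35.7% in hair cells. Rpl7l1, which is linked to ribosome assembly, was higher in neurons (8.06 and 7.04 per 10000) than in macrophages (2.74 and 2.71). It made up 4.54% and 4.47% of Rpl7 and Rpl7l1 together over all cells. Rpl3l reached 5 and 4 UMIs in neurons, beside 3903 and 3262 of Rpl3, and its count over all cells is too low for an order of classes. Rpl39l, with 35 and 18 UMIs, is likewise left without one, and Rps4l, the paralog of Rps4x (1585 and 1534 CPM), was not analysed here.

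Between the drug and the noise-only library the ribosomal protein share over all cells was nearly the same, 11.1% in each, with a ratio of 0.998 (95% interval 0.996 to 0.999). Among the 19 classes, 10 had ratios within 5% of 1, 6 had ratios above 1 and 13 below, with a median of 0.984. In the main classes, which are the 6 with the most cells, the ratios were 1.003 in supporting cells, 0.995 in endothelial cells, 0.988 in Schwann or satellite glia, 0.957 in macrophages, 0.9499 in pericytes and 0.910 in fibrocytes. The direction held in each of the alternatives tried for macrophages and pericytes. For all cells, Schwann or satellite glia, endothelial and supporting cells it turned in some, with ranges of 0.962 to 1.03, 0.981 to 1.08, 0.971 to 1.02 and 0.985 to 1.02.

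The lower share in fibrocytes, 13.6% (0.906 to 0.913 as the interval of the ratio) against 12.4%, went with other proportions of its clusters. The 5 fibrocyte clusters taken singly had ratios of 0.971, 0.9999, 0.976, 1.09 and 0.975. The low-share cluster led by Slc4a11 held 131 noise-only and 715 drug cells. Giving each cluster its noise-only weight in both libraries made the fibrocyte ratio 1.003. A difference between the groups in these proportions and one between single libraries cannot be told apart.

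3 classes passed a ratio of 1.25 in size. In stratified or mucosal epithelium the share was 12.1% (noise-only) and 17.4% (drug), a ratio of 1.44 (1.43 to 1.45). The median cell stood at 11.3% and 17.6%. This class also differed in its own markers. Bpifa1, a secreted protein of airway mucosa, took 146813 CPM (noise-only) and 57150 CPM (drug). Krt15, a basal keratin, stood at 1471 and 156 CPM, and the antimicrobial lectin Reg3g at 162 and 3503 CPM. Other basal markers were split, with Krt5 at 218 and 106 CPM, Krt14 at 241 and 426 CPM and Trp63 at 29.1 and 34.6 CPM. With the class's marker genes left out of the total, the ratio was 1.31. All alternatives lay between 1.31 and 1.45.

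In neutrophils the share was 5.03% and 6.51%, a ratio of 1.30 (1.27 to 1.32), over 128 and 220 cells. The marker genes of neutrophil precursors were higher in the drug library, with Camp at 10706 and 35900 CPM and Ngp at 8961 and 25147 CPM, while the late genes Retnlg (21511 and 6535 CPM) and Mmp9 (1212 and 506 CPM) were lower. The 6 haematopoietic progenitor markers summed to 15.4 CPM in the noise-only and 326 CPM in the drug neutrophils. The ratio turned below 1 when predicted doublets were kept (0.646) and when cells needed 500 genes (0.775). These 2 settings rebuilt the clusters and gave neutrophil classes of 156 and 300, and of 224 and 364 cells. In both of them no cluster took the name haematopoietic progenitor.

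In erythroid cells the share was 8.63% and 6.64%, a ratio of 0.770 (0.762 to 0.778). The precursor cluster went from 25.0% (26 cells) to 16.3% (46 cells), while the 2 globin-led clusters had ratios of 1.12 and 1.25. The median erythroid cell stood at 3.98% and 4.22%, in the opposite direction to the pooled share. With noise-only cluster weights the ratio was 0.839. Globin and other erythroid markers together made up 497037 CPM of the noise-only and 539513 CPM of the drug erythroid cells, and without them the ratio was 0.841. All 14 alternatives for erythroid cells lay between 0.754 and 0.971. Smaller differences were seen in hair cells (0.887, 0.874 to 0.900), osteoblasts or osteocytes (1.09, 1.08 to 1.10) and fibroblasts (1.08, 1.07 to 1.10). The osteoblast ratio turned below 1 in 2 of 15 alternatives, those with at least 1000 genes per cell (0.879) and with the higher clustering resolution of 2 (also 0.879). The fibroblast ratio turned in 1 of 15, with cells of at least 1000 genes in the same classes (0.931), and reached 1.45 when those cells were clustered anew. The median hair cell stood at 9.07% and 8.96%. Erythroid markers, mostly globins, summed to 3264 CPM in noise-only and 15748 CPM in drug hair cells, and macrophage markers to 37.3 and 320 CPM. Of 10 measured dissociation and stress genes 8 were lower by over 0.32 on the log2 scale in drug hair cells, and all 11 summed to 9602 and 3469 CPM. Their part in the lower hair cell share was not tested.

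Single members differed little between the libraries over all cells. Of 82 members measured, 28 were higher and 54 lower in the drug library, and 2 passed a log2 ratio of 0.32 in size (1.25-fold). For all 17256 genes measured the percentage past that size was 21.7, mostly genes with few UMIs, and for the 10674 genes with at least 500 UMIs it was 8.71%. The 2 members were Rpl39l and Rpl3l, with 53 and 26 UMIs in all and intervals that hold 1. None of the 80 members with at least 500 UMIs passed, and the median log2 ratio of members was -0.03, as against -0.03 for all genes measured.

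Counts in the main classes were as low. In Schwann or satellite glia 0 of 80 members passed, beside 27.7% of all genes measured, and in supporting cells 0 of 80, beside 32.6%. In fibrocytes, whose cluster proportions differed between the libraries, 2 passed, both lower (Rps2 and Rpl22l1), beside 32% of genes. In endothelial cells 1 passed, Rpl7l1 (62.9 and 46.2 CPM), beside 27.7%. In macrophages 1 passed, Rps27l (384 and 300.4 CPM), beside 37.7%. In pericytes 3 passed, all lower (Rps2, Rpl7a, and Rpl10 at 786 and 614 CPM), beside 40% of genes. These shares of all genes include many near the minimum of 20 UMIs. With at least 500 UMIs, the share of all genes past that size was 7.197% in Schwann or satellite glia, 9.48% in supporting cells, 14.0% in fibrocytes, 3.59% in endothelial cells, 11.9% in macrophages and 13.1% in pericytes. Members with as many UMIs passed in 0 of 79, 0 of 79, 2 of 79, 0 of 79, 1 of 79 and 3 of 73 cases.

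The 3 classes that differed in share were picked by the sum of their members. Counts of members past the same size are therefore no separate result and only show how the difference was spread. In stratified or mucosal epithelium 68 of 80 members passed, all higher, beside 26.9% of genes that were higher by that size, and the median member stood at 0.52 against 0.02 for all genes. In neutrophils 54 of 80 passed, all higher, beside 29.3% of genes, with a median of 0.39 against -0.04. In erythroid cells 53 of 80 were lower by that size, beside 38.4% of genes, with a median of -0.38 against -0.17. In hair cells 11 of 80 were lower, beside 26.5%, with a median of -0.19 against -0.04. Among genes with at least 500 UMIs, those past the size in either direction were 51.6% of all genes and 68 of 79 members in stratified or mucosal epithelium. In neutrophils they were 59.0% of all genes and 24 of 38 members, so that members lay near the share of all genes. The corresponding values were 45.4% and 50 of 73 in erythroid cells, and 28.6% and 6 of 61 in hair cells. The erythroid values pool all 3 clusters, of which the 2 led by globin genes had higher shares with drug.

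**Figure D4:**
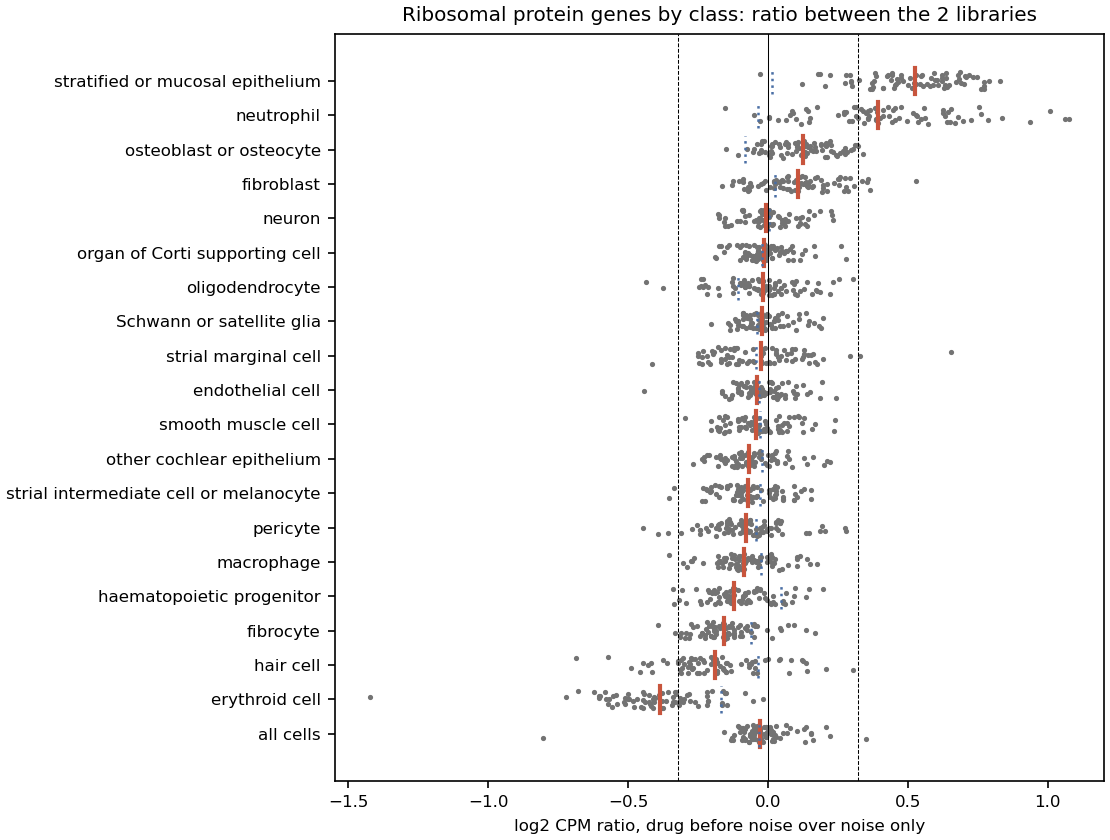
Log2 CPM ratio of drug over noise-only (x axis) for each measured ribosomal protein gene (grey points), by class; red bars are the members' medians, dotted blue bars the medians of all genes measured, and dashed lines the ratios of 0.32 and -0.32. Members of stratified or mucosal epithelium centre on 0.52, those of neutrophils on 0.39 and those of erythroid cells on -0.38, while those of all cells centre on -0.03.

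Within the small differences over all cells there was an order by length. Rps29 stood at 2886 CPM in the noise-only and 3369 CPM in the drug library, a ratio of 1.17 (1.16 to 1.18). Rps28, which lies near the messenger RNA exit of the small subunit, stood at 1286 and 1483 CPM (1.15, 1.14 to 1.17). Rpl38 followed at 1485 and 1661 CPM (1.12, 1.10 to 1.13), Rpl39, which lines the exit tunnel, at 1553 and 1730 CPM (1.11, 1.10 to 1.13), and Rps27 at 1836 and 2041 CPM (1.11, 1.10 to 1.12). These 5 members, the furthest on the higher side, have coding lengths of 153 to 252 bases.

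On the lower side, Rplp0 stood at 1522 CPM in the noise-only and 1366 CPM in the drug library, a ratio of 0.898 (0.886 to 0.909). Rpl10, a late-joining large subunit protein, stood at 854 and 779 CPM (0.913, 0.897 to 0.929). Rps6, the target of S6 kinase, stood at 695 and 635 CPM (0.914, 0.897 to 0.931). Rpl3, at the peptidyl transferase centre, stood at 1121 and 1029 CPM (0.919, 0.905 to 0.932), and Rpl4 at 399 and 365 CPM (0.916, 0.893 to 0.939). Their coding lengths run from 642 to 1257 bases. Rpsa (0.939), Rplp1 (0.938) and Rplp2 (1.01), at 885, 342 and 345 bases, lay between. The size of the Rplp0 difference depended on the cells used. Its log2 ratio, -0.16 as reported, shrank to -0.013 once cells under 1000 genes were dropped. Rpl10 and Rps6 then stayed at -0.11 and -0.12. Taken as a mean of the CPM per cell, Rplp0 moved the other way, to -0.31.

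Across 80 members, log2 ratio and coding length had a Spearman rho of -0.73 and, with length on the log scale, r = -0.74. The 10 members under 300 coding bases had a median log2 ratio of 0.14, and the 8 members from 800 bases one of -0.10. Rpl6 (888 bases, ratio 1.046), Rpl35 (369 bases, 1.10) and Rps27l (252 bases, 0.995) lay off this order. The correlation was below 0 in 18 of 19 classes, between -0.74 and 0.05, with neutrophils at 0.05. The difference between short and long members was above 0 in 19 of 19 classes, between 0.03 and 0.39. Rps29 and Rpl38 lay above the class's median member in 19 of 19 classes. The classes share the same 2 libraries, so this is 1 observation of a pair of libraries and not 19.

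Genes outside the set showed the order less or not at all over all cells. Among other genes with at least 500 UMIs, the 260 with under 300 coding bases had a median log2 ratio of -0.03 and the 7868 with 800 or more one of -0.04, with a rho of 0.10. Among 188 other genes as abundant as members, with at least 30503 UMIs, the 37 short ones had a median of -0.00 and the 62 long ones one of -0.07, with a rho of -0.15. By class, the short ones among other genes with at least 500 UMIs had the higher median in 16 of 19 classes, and their rho was below 0 in 9 of 19. The difference between members and other genes was not tested, and the length split was chosen after the values were seen.

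**Figure D5:**
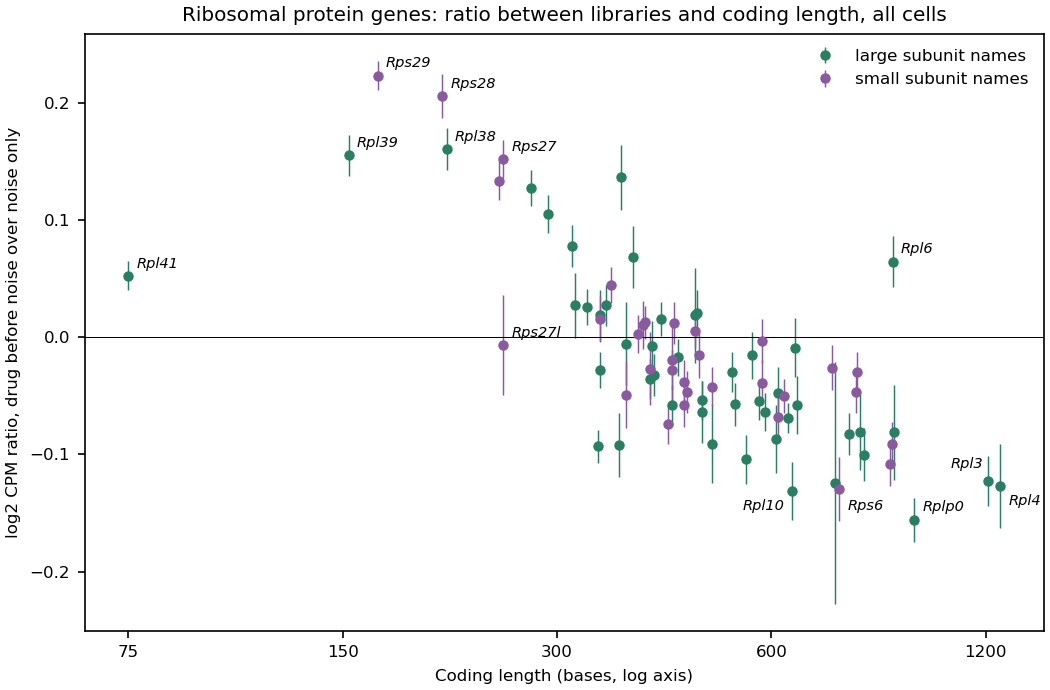
Log2 CPM ratio of drug over noise-only, all cells (y axis), against coding length in bases (x axis, log scale) for the 80 members with at least 200 UMIs; bars are 95% intervals of counting error. Short members such as Rps29 (ratio 1.17) lie above 0 and long ones such as Rplp0 (0.898) below.

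The same members recurred in the main classes. Rps29 was among the 2 furthest on the higher side in each of the 6, with ratios of 1.13 in Schwann or satellite glia, 1.12 in fibrocytes, 1.18 in endothelial cells, 1.13 in macrophages, 1.21 in supporting cells and 1.21 in pericytes. Rpl38 stood beside it in 5 of them, between 1.07 in fibrocytes and 1.21 in pericytes, and Rps28 in Schwann or satellite glia (989 and 1132 CPM, 1.14).

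On the lower side, Rps2 was named in 4 of the 6 main classes. In fibrocytes it stood at 1662 CPM noise-only and 1265 CPM drug (0.761, 0.734 to 0.789), in pericytes at 1375 and 1046 CPM (0.761), in macrophages at 2560 and 2133 CPM (0.833) and in Schwann or satellite glia at 1356 and 1229 CPM (0.906). In neurons, by contrast, it stood at 558 and 599 CPM, a ratio of 1.07. The difference between those classes was not tested. Rplp0 was named in Schwann or satellite glia (2159 and 1873 CPM, 0.868), macrophages (2322 and 1923 CPM, 0.828) and endothelial cells (1369 and 1232 CPM, 0.900). Rpl22l1 in fibrocytes stood at 845 and 670 CPM (0.793, 0.754 to 0.834). Others were Rpl29 in endothelial cells (0.893), Rpl7a in pericytes (0.734), and Rpl7 (0.885) and Rpl10 (0.880) in supporting cells.

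Genes that work with ribosomal proteins moved as little over all cells. Of the ribosomal proteins outside the symbol rule, Fau had a ratio of 1.01 (2438 and 2473 CPM) and Rack1 one of 0.937 (446 and 418 CPM). Of 18 other TOP messages 0 passed the size of 0.32, with a median log2 ratio of -0.07. Tpt1 (2891 and 2696 CPM, 0.933) and Vim (524 and 438 CPM, 0.836) were the lowest named. Of 9 elongation factors 1 was lower by that size, beside 1677 of all 17256 genes measured. It was Eef1a2 of neurons and muscle (123 and 98.1 CPM, 0.797), and Eef2 stood at 381 and 391 CPM (1.03). Of 26 initiation factors 0 passed, with a median of -0.10 and the abundant start-codon factor Eif1 at 2506 and 2145 CPM (0.856).

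Of 32 ribosome biogenesis genes 0 passed (median -0.08), with the snoRNP protein Nop58 at 80.3 and 69.7 CPM (0.868). Of 10 snoRNA host genes 0 passed (median -0.03), and of 78 mitochondrial ribosomal proteins 0 passed (median -0.10). Of 20 genes of mTOR and MYC control 2 were lower by that size, beside 1677 of all 17256 genes measured. The 2 were the mTOR inhibitor Deptor (38.9 and 25.9 CPM, 0.667) and Myc, which drives ribosomal protein and biogenesis genes (11.5 and 7.45 CPM, 0.646). Of 12 p53 targets, a pathway that free Rpl5 and Rpl11 switch on by binding Mdm2, 3 were lower, beside the same 1677 of 17256 genes. The 3 were Phlda3 (98.7 and 70.7 CPM, 0.716), Cdkn1a (387 and 296 CPM, 0.764) and Sesn1 (52.0 and 41.1 CPM, 0.790). Rpl5 and Rpl11 had ratios of 0.945 (313 and 296 CPM) and 0.961 (1484 and 1426 CPM). The median of all genes measured was -0.03, so that members stood at the level of the other genes and most of these lists slightly below it.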

How the data were processed

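Values as deposited are whole UMI counts with no normalization, and Cell Ranger 5.0.1 made the matrices, per the file headers. Tools named, per the submitters' processing notes, are Seurat 3.2.2, STAR and Cell Ranger 5.0, with GRCm38 or mm10 as the build. No annotation release is named. Gene coordinates and coding lengths come from GENCODE M21, start windows from RefSeq.

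Cells with at least 300 genes and 500 UMIs and at most 20% mitochondrial UMIs were kept (17423 and 20133), and doublets predicted by Scrublet in scanpy 1.11.5 at an expected rate of 8% were removed (805, or 4.62%, and 2597, or 12.9%; score thresholds 0.264 and 0.164). Clustering took both libraries at once with no batch integration (3000 variable genes, 30 principal components, 15 neighbours, leidenalg 0.10.2 at resolution 1), leaving out ribosomal protein and mitochondrially encoded genes. A cluster was named by the type with the highest mean fold among types with at least 3 markers at 2 times the level of other cells and in 10% of cells. No other type could have more markers among its 10 leading genes, and the named type needed one there or 4 markers in all. This rule was settled after the clusters were seen, and 4 clusters stayed unnamed. Free RNA was not subtracted.

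UMIs were summed per class and library. Shares have exact binomial (Clopper-Pearson) intervals and ratios exact conditional binomial intervals, both at 95%. For log2 ratios 0.5 UMI was added to both sums, for genes with at least 20 UMIs in the 2 sums. The size of 0.32 is a description of size and no test, and no p-value or standard error was derived from cells. The 2 libraries are unreplicated pools, so the spread between ears is unknown.

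Members and gene lists were chosen with earlier results of these data known. Named were the 5 highest and lowest members by level, the 10 most uneven, the 5 per direction over all cells and 2 per direction in each of the 6 main classes by interval bound, the stalk proteins with Rpsa, the paralog pairs, and up to 3 per direction of each list by the same bound. Rps10, Rps9, Rpl35, Rpl6, Rpl5 and Rpl11, and the cluster leading genes and class markers, were named after their values were seen. Results of 2 genes that these rules name are not reported here.

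The ratio step was tested on simulated data with 200 of the genes changed. Both simulated libraries were drawn as Poisson counts from the same profile, with no variation between ears, libraries or cell proportions. The rates below thus describe counting error and are no error rates for the 2 real pools. Over all cells (17257 genes measured) it called 98% of genes changed 1.5-fold, 20% of those changed 1.2-fold and 9.69% of unchanged genes, or 0.104% of unchanged genes with at least 500 UMIs. Intervals held 1 for 95.5% of unchanged genes. In pericytes (7689 genes) it called 88% of genes changed 1.5-fold. Scaling factors alone came from edgeR 4.0.16 and DESeq2 1.42.0 (R 4.3.3), and all else from Python 3.11.15 with scipy 1.17.1, pandas 2.3.3, numpy 2.4.6 and matplotlib 3.10.9.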

Additional observations from a re-analysis of the deposited data

Results flagged for a closer look

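In 3 classes the share of UMIs on ribosomal protein genes differed between the libraries by more than 1.25-fold, and not in the same direction. The drug over noise-only ratio was 1.44 in stratified or mucosal epithelium-like cells and 1.30 in neutrophil-like cells, and 0.770 in erythroid cell-like cells. Each class came from 1 library per group, so the difference between the classes was not tested. Marker genes of the first 2 classes differed as well (Bpifa1 and Reg3g, Camp and Retnlg), with values given in the report. In erythroid cells the lower share was that of 1 cluster of 26 noise-only and 46 drug cells (25.0% and 16.3%), while the other clusters had ratios of 1.12 and 1.25.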

How the results depend on the processing

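No paired analysis was possible because each group is 1 library, and for the same reason no replicate could be left out. Ratios of the ribosomal protein share, drug over noise-only, are given in the order all cells, Schwann or satellite glia, fibrocytes, endothelial cells, macrophages, supporting cells and pericytes, against 0.998, 0.988, 0.910, 0.995, 0.957, 1.003 and 0.9499, where they moved beyond the interval. Without mitochondrially encoded genes they were 1.01, 1.02, 0.924, 1.01, 0.971, 1.02 and 0.974, and without these, haemoglobin and Malat1 1.03, 1.03, 0.937, 1.01, 0.972, 1.02 and 0.978. As a mean over cells they were 0.991, 0.982, 0.926, 0.971 and 0.914, and 0.963 in pericytes. With at least 1000 genes per cell and new clusters they were 1.01, 1.08, 0.871, 1.01 and 0.976, and 0.970 in pericytes, and with those cells in the first classes 1.01, 1.06, 0.887, 1.02, 0.987, 1.01 and 0.966. With at least 500 genes they were 0.999 in all cells, 0.892 in fibrocytes, 0.948 in macrophages, 0.996 in supporting cells and 0.962 in pericytes. With at most 10% mitochondrial UMIs they were 1.01, 1.01, 0.903 and 1.003 in the first 4. With doublets kept they were 0.905 in fibrocytes, 0.976 in endothelial cells, 0.941 in macrophages, 0.985 in supporting cells and 0.965 in pericytes. Thinned to 1000 UMIs per cell they were 0.962, 0.981 and 0.868 in the first 3, 0.940 in macrophages and 0.975 in pericytes. With noise-only weights of the clusters they were 1.01, 0.982 and 1.003 in the first 3. At the lower clustering resolution of 0.5 they were 0.946 in macrophages, 1.02 in supporting cells and 0.971 in pericytes. Clusters built with all genes gave 0.935 in pericytes, and leaving out own markers 0.915 in fibrocytes. In neutrophils the ratio of 1.30 turned to 0.775 with at least 500 genes and to 0.646 with doublets kept, and the cause was not tested. The members' median log2 ratio over all cells of -0.03 was -0.0064 with edgeR's TMM factors, -0.0071 with DESeq2's size factors, -0.0091 without mitochondrially encoded genes and -0.0095 for cells of at least 1000 genes. It was -0.072 when the main classes had equal weight. The 2 members past the size of 0.32 over all cells became 0 with a minimum of 100 UMIs and 1 with at least 1000 genes, classes weighted equally, a mean over cells or doublets kept. With CPM over all UMIs in place of the share of ribosomal protein UMIs, 80 members in place of 15 spanned 2-fold over classes. With at least 1000 genes, too few cells remained for erythroid cells in new clusters (25 and 19) and for neutrophils in the first classes (10 and 50). In some settings that rebuilt the clusters, no cluster took a class's name, so no ratio exists. This was so for neutrophils with at least 1000 genes and for other cochlear epithelium at resolution 0.5. It was also so for haematopoietic progenitors with at least 500 genes, doublets kept or resolution 0.5. Some alternatives were added after the data were seen: without own markers and the 1000-gene cells in the first classes are among them. Members with few UMIs, such as Rpl39l and Rpl3l, are limited by depth.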

Other observations

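Outside the members, 5 pseudogene rows named after ribosomal proteins were listed, of which 3 had UMIs, taking 0.0153% of noise-only and 0.0144% of drug UMIs. Rpl9-ps6 stood at 79.8 and 77.7 CPM, Rpl10-ps3 at 61.7 and 54.1 CPM and Rpl36a-ps1 at 11.3 and 12.6 CPM. Across the 19 classes their summed level had r = 0.94 (noise-only) and 0.92 (drug) with the ribosomal protein share, a description of classes whose points share cells and totals.

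Rps9, chosen after its values were seen, was highest in neutrophils in both libraries, at 315 and 219 per 10000 ribosomal protein UMIs, and lowest in neurons, at 111 and 110. Its span over classes was 1.502 in the noise-only and 0.99 in the drug library on the log2 scale.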
